A study of Mus musculus with 12 samples.

Results

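Aquaporins are membrane channels that let water, and in some members glycerol, pass across the cell membrane. The 9 genes described here, Aqp1, Aqp2, Aqp3, Aqp4, Aqp5, Aqp6, Aqp7, Aqp8 and Aqp11, were chosen by symbol: every probe set that the array's annotation gives one of these names belongs to them. They are 9 of the 18193 genes named on the array. They were measured by 20 of its 45101 probe sets, and 0 of these 20 also name another gene. Their levels were compared between mouse kidney RNA and a mouse reference RNA on 12 Affymetrix-type expression arrays, on which a probe set is a group of short probes read as 1 signal.

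The study set out to compare ways of amplifying nanogram amounts of RNA before hybridisation. Total RNA of mouse kidney, bought from Ambion, was used at an input of 10 ng on 3 arrays. A universal mouse reference RNA, spelt as from Strategene in the labels and sold as a pool of RNA from cell lines, was used at 10 ng, 3 ng and 0.3 ng on 3 arrays each. All 12 titles carry the code pRS, whose meaning is not given in the sources used here, and neither are the strain, sex and age of the animals, how many gave RNA, or the cell lines of the pool. The labels do not say whether the 3 arrays of a group started from separate RNA, so the p-values below measure only the spread between arrays, which may be technical. RNA of whole kidney mixes many cell types, and in such RNA fewer cells of a type and less RNA per cell cannot be told apart.

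In the kidney, water leaves the tubule through different aquaporins in different segments. As background, Aqp1 carries it across both faces of the proximal tubule and thin descending limb, and Aqp2 across the apical face of collecting duct principal cells, where vasopressin moves it from vesicles to the membrane. Aqp3 and Aqp4 let the same water out on the basolateral side. Aqp7 takes up glycerol in the straight proximal tubule, Aqp11 lies inside proximal tubule cells, and Aqp6 sits in vesicles of intercalated cells. Aqp5 is best known from salivary, lacrimal and airway glands, and Aqp8 from digestive organs.

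Signals are linear intensities on which the 2% trimmed mean of every array is 500. The level below which a signal is treated as background, 33.7, is the 95th percentile of 27 probe sets for Bacillus control RNA. Median signals were 56.6 to 59.6 in kidney and 67.9 to 71.2, 70.1 to 78.3 and 47.5 to 53.2 in the reference at 10, 3 and 0.3 ng. The median SD of log2 signals between the arrays of a group was 0.26 in kidney, 0.24 and 0.31 in the reference at 10 and 3 ng, and 0.69 at 0.3 ng, and correlations between the arrays of a group, across probe sets, were lowest at 0.3 ng (0.856 to 0.881). As a description, markers went in the direction of the labels. At 10 ng kidney exceeded the reference for all 6 proximal tubule, 5 of 5 principal cell and 4 of 4 intercalated cell markers. All 4 fibroblast and 3 tested cell division markers were lower. A probe set was tested only if some group was bright enough, and several markers were so in kidney alone or in the reference alone. For these a difference was built in. Lrp2 had means of 4560 and 9.9, and Bub1 19.3 and 1376, in kidney and reference at 10 ng. Tested markers of red cells, fat and liver were also higher in kidney, and Bst1 of the thin descending limb did not pass.

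Promoter sequence is shown for 4 aquaporins that the results turn on: Aqp1, the channel of the proximal tubule; Aqp2 and Aqp5, which lie next to each other and differed in opposite directions; and Aqp3, the basolateral partner of Aqp2. Each sequence is the 250 bases before the gene's start, 5′ to 3′ in the direction of the gene, from RefSeq on the build GRCm38.p6. Capitals mark matches on either strand to 4 motifs. TATAAA is the TATA box that places the start of many genes. The second, TGACG, is the half-site of the cAMP response element, which the factor CREB binds. The GC box, GGGCGG, is bound by Sp1. The GATA site searched for was AGATAA, and no stretch in capitals belongs to more than 1 motif.
Aqp1 promoter, chr6:55336049-55336298, + strand: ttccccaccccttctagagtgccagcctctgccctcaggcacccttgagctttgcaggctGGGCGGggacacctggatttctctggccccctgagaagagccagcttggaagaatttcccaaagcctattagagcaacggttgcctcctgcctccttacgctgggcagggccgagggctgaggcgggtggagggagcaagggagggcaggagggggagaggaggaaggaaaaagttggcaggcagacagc
Aqp2 promoter, chr15:99578806-99579055, + strand: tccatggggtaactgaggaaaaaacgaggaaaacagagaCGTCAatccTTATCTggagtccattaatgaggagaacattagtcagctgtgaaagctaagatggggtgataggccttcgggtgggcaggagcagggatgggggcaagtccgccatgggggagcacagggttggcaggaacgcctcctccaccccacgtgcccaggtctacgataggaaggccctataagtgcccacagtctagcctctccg
Aqp3 promoter, chr4:41098184-41098433, - strand: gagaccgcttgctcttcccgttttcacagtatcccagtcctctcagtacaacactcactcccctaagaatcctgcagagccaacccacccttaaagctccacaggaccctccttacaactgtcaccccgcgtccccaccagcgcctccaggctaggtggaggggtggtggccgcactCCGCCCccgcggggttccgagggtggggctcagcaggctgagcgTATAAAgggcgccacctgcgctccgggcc
Aqp5 promoter, chr15:99590778-99591027, + strand: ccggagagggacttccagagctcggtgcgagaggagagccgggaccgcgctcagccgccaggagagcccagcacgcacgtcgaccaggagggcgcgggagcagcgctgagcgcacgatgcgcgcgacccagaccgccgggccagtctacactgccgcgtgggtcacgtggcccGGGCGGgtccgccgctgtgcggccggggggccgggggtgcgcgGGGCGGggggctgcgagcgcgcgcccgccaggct

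The Aqp2 window held a cAMP response element half-site 211 bases and a GATA site 202 bases before the start, both on the opposite strand. The Aqp3 window held a TATA box 29 bases before the start and a GC box 73 bases before it on the opposite strand. The Aqp1 window had a GC box 190 bases before the start, and that of Aqp5 had 2 GC boxes, 77 and 34 bases before it. Of these windows Aqp5 was richest in G and C (78.4%) and Aqp2 poorest (55.6%), with Aqp1 at 62% and Aqp3 at 64%. Over all 32851 windows of this length in the table, 12.4% held the TATA box, 17.8% the cAMP half-site, 32.7% the GC box and 9.99% the GATA site, counting matches anywhere in the window and on either strand. A TATA box in the gene's own direction and 20 to 40 bases before the start, as in Aqp3, stood in 2% of windows of + strand genes and 1.98% of those of - strand genes. A match marks letters, not a bound factor. No array measured binding at these windows.

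Kidney RNA gave higher signals than the reference at the same input for 7 of the 9 aquaporin genes: Aqp1, Aqp2, Aqp3, Aqp4, Aqp6, Aqp7 and Aqp11. Aqp5 was lower in kidney, and Aqp8 was too dim to be tested. By limma, with Benjamini-Hochberg adjustment over 27022 probe sets and a threshold of 0.05, 13 of 14 tested aquaporin probe sets were higher in kidney at 10 ng and 1 was lower, beside 22.9% and 37.2% of all tested probe sets (60.1% called in all). Over all probe sets the calls were 6201 higher and 10045 lower, and 7540 and 7805 when each array was centred on its median, which moved the median log2 difference from -0.34 to -0.09. In the same 13 probe sets every kidney array lay above every reference array, and in the 1 of Aqp5 below, beside 26.7% and 43.1% of all. The 14 aquaporin calls kept their direction under that scaling, with Aqp5 at -1.45. The tested 14 are not all 20 members, since a probe set was tested only if at least 1 group reached a mean signal of 65.4, and 10 of the 14 reached it through kidney alone. For those 10 a difference was therefore built in, and only Aqp1, Aqp5, 1 probe set of Aqp3 and 1 of Aqp6 reached it in the reference too.

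**Figure D1:**
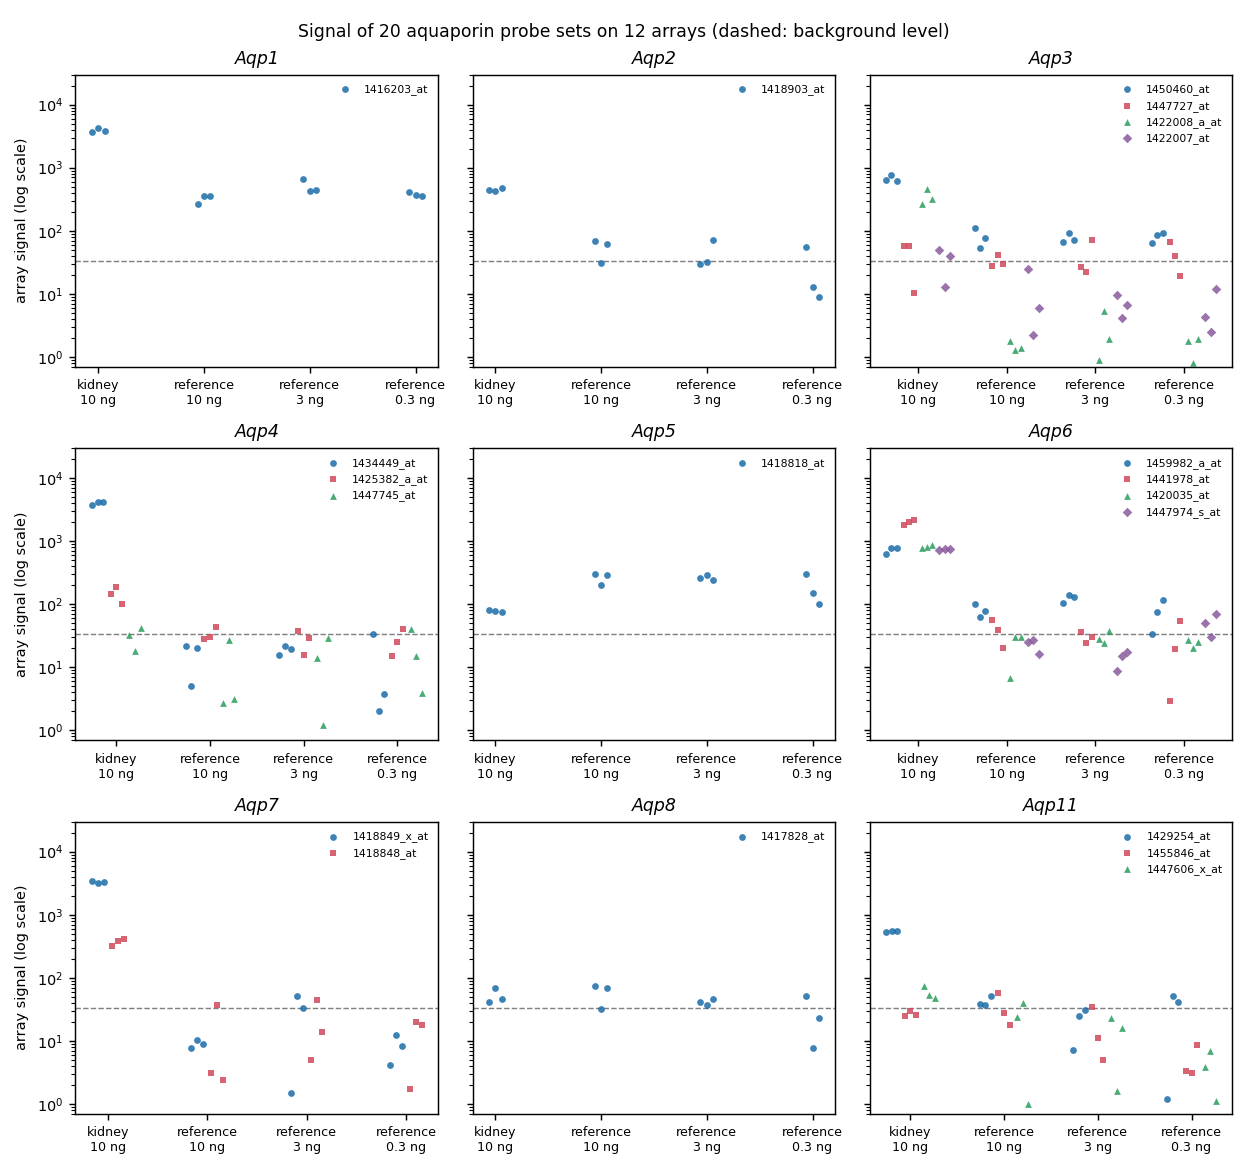
Signal of the 20 aquaporin probe sets on all 12 arrays, on a log scale, with 1 panel per gene, 1 point per array, colours for the probe sets of a gene and a dashed line at the background level of 33.7. By the circles, which mark the probe set that stands for each gene, kidney lies above every reference array for 7 genes, below them for Aqp5 and among them for Aqp8.

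The water channel of the proximal tubule was higher in kidney and was also well above background in the reference. Aqp1 gave signals of 3652, 4198 and 3853 in kidney and 265, 357 and 360 in the reference at 10 ng. It gave 665, 425 and 438 at 3 ng and 408, 375 and 362 at 0.3 ng. Every kidney array lay above every reference array, and all 12 were above background. On the log2(signal + 3.9) scale kidney was higher than the reference at 10 ng by 3.57 (SE 0.17, 95% interval 3.15 to 3.99, limma adjusted p = 4.1e-05), a 12.01-fold difference between group means of log2 signal. The difference was 2.96 against 3 ng (adjusted p = 0.000218) and 3.34 against 0.3 ng (adjusted p = 0.000297), comparisons in which RNA and input change together.

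Aqp1 is also a channel of endothelium and red cells, and both kinds of marker moved with it. All 5 endothelial markers were higher in kidney than in the reference at 10 ng, among them Emcn and Tek. Over all tested probe sets 22.9% were higher. Kdr, Cdh5, Emcn and Tek reached the level for testing through kidney alone, so a difference was built in for them. The summed signal of the 5 markers ranged from 5137 to 6017 in kidney and from 123 to 289 in the reference at 10 ng. There 1 of the 5 (Emcn) was below background. Of these markers Pecam1 and Cdh5 had adjusted p-values near the threshold (0.0415 and 0.0367), and 3 of 5 were called without kidney replicate 1, kidney replicate 2 or reference 10 ng replicate 3. Against the reference at 3 ng 4 of the 5 were higher, and against 0.3 ng 3 of the 5. Pecam1 had means of 85.6 in kidney and 81.1 and 81.2 in the reference at 3 and 0.3 ng. Both tested red cell markers, Hbb-b2 and Alas2, were higher too, while the third, Hba-a1, was below background on every array of both groups. Summed red cell signal was 8859 to 9127 in kidney and 11.4 to 28 in the reference at 10 ng, where all 3 red cell markers were below background. The 6 proximal tubule markers summed to 33917 to 34954 in kidney and 226 to 329 in the reference at 10 ng, with 2 of the 6 below background there. Only Slc5a2 of the 6 reached the level for testing in the reference too, so for the others a difference was built in. Of the 3 markers of the thin descending limb, Slc14a2 and Cryab were higher and Bst1 did not pass, and their sums were 15191 to 15529 and 4757 to 5757. Cryab made up most of both sums, with means of 11925 and 5051, beside 3202 and 7.1 for Slc14a2. Slc14a2 reached the level for testing through kidney alone, so its difference was built in. Whether these markers belong to that segment only was not tested. The part of each of these cell types in the Aqp1 signal was not tested.

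The vasopressin-regulated channel Aqp2 was higher in kidney and near background in the reference. Its kidney signals were 451, 434 and 484, and its reference signals were 67.8, 31 and 60.7 at 10 ng, 30, 32.1 and 72.5 at 3 ng and 54.6, 13 and 8.8 at 0.3 ng. The groups did not overlap, and within each reference input some arrays lay below background and some above. Kidney was higher than the reference at 10 ng by 3.08 log2 units (SE 0.29, 95% interval 2.35 to 3.80, limma adjusted p = 0.000433). With dim signals raised to background this was an 8.81-fold difference. Against 3 ng and 0.3 ng the log2 differences were 3.34 (adjusted p = 0.000655) and 4.31 (adjusted p = 0.00399), or 3.39 and 3.53 with dim signals raised to background.

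The basolateral channels Aqp3 and Aqp4 were both higher in kidney. The probe set that stands for Aqp3 (1450460_at) gave 636, 756 and 608 in kidney and 110.4, 53.9 and 76.7 in the reference at 10 ng. With 3 ng it gave 66.5, 92.8 and 71.3, and with 0.3 ng 63.5, 86.2 and 93.3. Its signal was above background on all 12 arrays and its reference means were 80.3 ± 28.4, 76.9 ± 14.01 and 81.0 ± 15.6 (SD, n = 3 each) at 10, 3 and 0.3 ng. Kidney was higher by 3.04 log2 units at 10 ng (SE 0.27, 95% interval 2.37 to 3.71, limma adjusted p = 0.000343), an 8.62-fold difference, by 3.06 against 3 ng and by 2.99 against 0.3 ng. A second Aqp3 probe set, 1422008_a_at, gave 264, 457 and 317 in kidney and at most 5.3 on any reference array, so kidney was at least 10.0-fold higher (limma adjusted p = 2.27e-05). The other 2 Aqp3 probe sets were not tested. 1447727_at gave 58.1, 56.4 and 10.3 in kidney and 28, 41.4 and 29.9 in the reference at 10 ng, with overlap, and 1422007_at gave 48.6, 12.8 and 39.2 against 24.6, 2.2 and 6.

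Aqp4, the water channel that also lines astrocyte end-feet in brain, had the largest lower bound of all members. The probe set that stands for it (1434449_at) gave 3712, 4258 and 4148 in kidney, and 22, 5.1 and 20.6 in the reference at 10 ng. At 3 ng it gave 15.5, 21.9 and 19.7, and at 0.3 ng 33.8, 2 and 3.8. Every reference array except 1 at 0.3 ng, which sat at the background level, was below background. Kidney was at least 119.8-fold higher than the reference at 10 ng (fitted log2 difference 7.82, SE 0.43, limma adjusted p = 6.56e-05). Another Aqp4 probe set, 1425382_a_at, gave 146, 188 and 102 in kidney and 27.9, 30.8 and 43.7 in the reference at 10 ng, a difference of 1.95 log2 units (SE 0.28, adjusted p = 0.00196) and 3.83-fold with dim signals raised to background. The third, 1447745_at, gave 32.2, 18 and 41.9 in kidney and 2.7, 27.1 and 3.2 in the reference at 10 ng, and was not tested. The 3 probe sets thus differ in how large a difference they show for 1 gene.

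Markers of principal cells, which hold Aqp2, Aqp3 and Aqp4, moved with all 3 channels. All 5 were higher in kidney at 10 ng, beside 22.9% of all tested probe sets. Their median log2 difference was 3.86, or 2.81 with dim signals raised to background. All 5 reached the level for testing through kidney alone, so a difference was built in. Summed over the 5, the signal was 7235 to 7691 in kidney and 94.6 to 148 in the reference at 10 ng. Of the 5, 1 (Scnn1g, a subunit of the epithelial sodium channel) was below background on every reference array at 10 ng. The proximal tubule markers given beside Aqp1 were higher in kidney too, with larger sums there (33917 to 34954). The part of principal cells or of other cell types in the difference of Aqp2, Aqp3 and Aqp4 was not tested.

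Aqp6, the vesicular channel of intercalated cells, was measured by 4 probe sets, and all 4 were higher in kidney. The probe set 1441978_at gave 1794, 2008 and 2168 in kidney and 56.2, 39.5 and 20.1 in the reference at 10 ng, and 1420035_at gave 783, 799 and 887 against 6.8, 30.4 and 30.5. The probe set 1447974_s_at gave 713, 760 and 760 against 25, 26.9 and 16. The probe set standing for the gene, 1459982_a_at, gave 626, 780 and 767 against 101, 63.3 and 79.6. The 4 probe sets were alike in direction and unlike in the reference, where only 1459982_a_at was above background on all 3 arrays at 10 ng. Kidney was higher by 3.11 log2 units for 1459982_a_at (SE 0.21, limma adjusted p = 0.000121), 9.04-fold, and by 5.65 for 1441978_at (SE 0.35, adjusted p = 9.42e-05), 47.1-fold with dim signals raised to background. It was at least 24.4-fold higher for 1420035_at and at least 22.1-fold for 1447974_s_at. All 4 tested intercalated cell markers, Atp6v0d2, Slc4a1, Foxi1 and Slc26a4, were higher in kidney than in the reference at 10 ng, and 3 of the 4 against 0.3 ng. Over all tested probe sets 22.9% were higher at 10 ng. Slc4a1, Foxi1 and Slc26a4 reached the level for testing through kidney alone, so a difference was built in for them. Slc4a1 had the largest kidney mean of the 4, 1288, beside 638 for Slc26a4, 442 for Atp6v0d2 and 152 for Foxi1. Red cell markers were higher in kidney too, and the part of red cells in the Slc4a1 signal was not tested. Sums over the 4 markers were 2308 to 2701 in kidney and 217.5 to 276 in the reference at 10 ng, where 2 of the 4 (Foxi1 and Slc26a4) were below background. The part of intercalated cells or of other cell types in the Aqp6 result was not tested.

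The aquaglyceroporin Aqp7 was higher in kidney by both of its probe sets. Its probe set 1418849_x_at gave 3386, 3241 and 3284 there, a mean of 3303.5 ± 74.5 (SD, n = 3), and 7.8, 10.3 and 9 in the reference at 10 ng. At 3 ng it gave 1.5, 51.9 and 33.6, and at 0.3 ng 4.1, 12.6 and 8.4. Reference arrays were below background except 1 at 3 ng, and another at 3 ng lay close to it. Kidney was at least 98.1-fold higher than the reference at 10 ng (fitted log2 difference with SE 0.13 and 95% interval 7.68 to 8.32, limma adjusted p = 3.81e-06). The second probe set, 1418848_at, gave 320, 377 and 415 in kidney and 3.1, 37.1 and 2.4 in the reference at 10 ng, a fitted difference of 4.93 (SE 0.74, adjusted p = 0.00244) that came to 3.41 with dim signals raised to background, or 10.6-fold. The suffix of 1418849_x_at marks probes that may also bind other transcripts, by the usual naming of these arrays, and its value is given with that limit.

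Aqp7 is also the glycerol channel of fat cells, and all 3 adipocyte markers, Fabp4, Adipoq and Cidec, were higher in kidney than in the reference at 10 ng. Against 3 ng, and against 0.3 ng, 2 of the 3 were higher. Sums over the 3 markers were 8174 to 8705 in kidney, 337 to 479 in the reference at 10 ng, 214 to 355 at 3 ng and 180 to 6349 at 0.3 ng. Nearly all of the kidney sum was Fabp4, with a mean of 7981, beside 347 for Adipoq and 93.2 for Cidec. The high value at 0.3 ng came from 1 array on which Fabp4 measured 6237, and Aqp7 was below background on that array by both probe sets. At 10 ng Adipoq and Cidec were below background on every reference array. Both reached the level for testing through kidney alone, so a difference was built in. Fabp4 is also made by endothelial cells. The part of fat cells in the Aqp7 result was not tested.

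Aqp11, a distant member of the family that lies in the endoplasmic reticulum, was higher in kidney by the probe set that stands for it. That probe set, 1429254_at, gave 531, 560 and 554 in kidney and 38.8, 36.5 and 52.1 in the reference at 10 ng. At 3 ng it gave 7.1, 24.8 and 31, all below background, and at 0.3 ng it gave 1.2, 52.1 and 40.7. The kidney mean was 548 ± 15.3 (SD, n = 3), and every kidney array lay above every reference array. The difference at 10 ng was 3.59 log2 units (SE 0.16, 95% interval 3.18 to 3.99, limma adjusted p = 3.78e-05), or 13.1-fold. Against 3 ng kidney was at least 16.3-fold higher, and against 0.3 ng the log2 difference was 4.56 (SE 0.94, adjusted p = 0.0152), or 3.72 and 13.2-fold with dim signals raised to background. Without kidney replicate 1, 2 or 3 the fitted difference against 0.3 ng was 4.59, 4.55 or 4.56 and no longer passed (limma adjusted p = 0.0544, 0.0548 and 0.0548). Its 2 other probe sets were not tested. 1447606_x_at gave 74.1, 53.4 and 47.2 in kidney and 23.7, 39.9 and 1 in the reference at 10 ng, and 1455846_at was below background on every kidney array.

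Aqp5, the gland aquaporin, went the other way. It gave 82.6, 78.7 and 74.2 in kidney and 302, 202 and 296 in the reference at 10 ng. With 3 ng it gave 264, 289 and 244, and with 0.3 ng 306, 149 and 99.4. It was above background on all 12 arrays, and every reference array lay above every kidney array at each input. Kidney was lower than the reference at 10 ng by 3.35-fold, a log2 difference of -1.69 (SE 0.19, 95% interval -2.17 to -1.22, limma adjusted p = 0.000827), and by 3.38-fold against 3 ng (adjusted p = 0.000312). Against 0.3 ng the difference was -1.04 (SE 0.43, 95% interval -2.12 to 0.03) and did not pass (limma adjusted p = 0.117). Without replicate 3 of the reference at 0.3 ng, the array at 99.4, it was -1.40 and passed (limma adjusted p = 0.042), and without replicate 1, the array at 306, it was -0.61 and did not (limma adjusted p = 0.121). Without any of the other 4 arrays it did not pass either. Which cell line of the pool carries Aqp5 cannot be read from these arrays.

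Aqp8 was dim in every group and was not tested. It gave 40.6, 69.1 and 46.8 in kidney and 74.9, 32.2 and 70.1 in the reference at 10 ng. With 3 ng it gave 41.7, 36.8 and 45.3, and with 0.3 ng 51.1, 7.7 and 23. All 3 kidney arrays lay above background, and the groups overlapped at every input. No group mean reached the level for testing. Aqp8 is known from liver, and both tested liver markers, Alb and Ttr, were higher in kidney RNA, with sums over the 3 listed of 9659 to 10109 against 44.7 to 83.1 in the reference at 10 ng. Nearly all of the kidney sum was Ttr, with a mean of 9682, beside 136 for Alb and 64.8 for Apoa1, which was not tested. Both Alb and Ttr reached the level for testing through kidney alone, so a difference was built in. Alb did not pass without kidney replicate 1 or 3 or reference 10 ng replicate 3 (limma adjusted p = 0.0509, 0.0553 and 0.0558). Of the other aquaporins on the array, Mip, Aqp9 and Aqp12 had 5 probe sets, and none reached that level. Mip, the lens channel, was below background on all kidney arrays and on all reference arrays at 10 ng, and the Aqp9 probe set 1424011_at gave 15.3 to 33.6 in kidney against 53.5, 17.6 and 50.8 in the reference at 10 ng. The other Aqp9 probe set, 1421605_a_at, lay the other way round, with 38.5, 32.5 and 26.6 in kidney against 2, 26.4 and 16.5, all near or below background. Aqp12 gave 48.4, 9.6 and 54.8 in kidney against 72, 6.1 and 10.4.

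**Figure D2:**
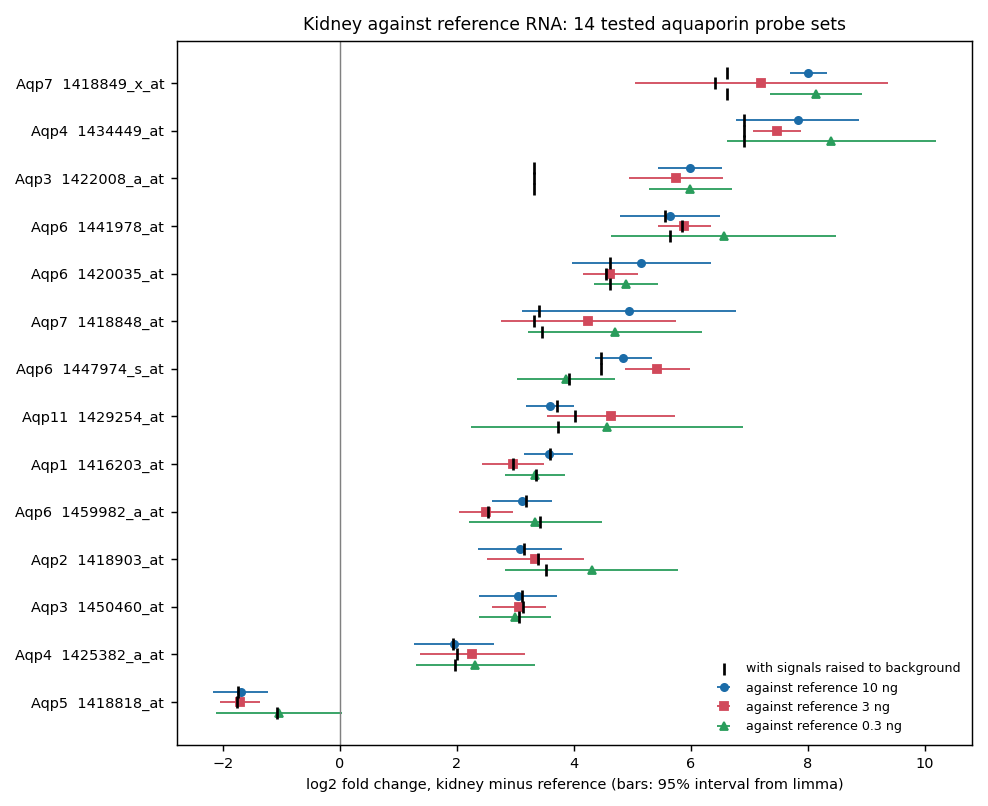
Log2 difference between kidney at 10 ng and the reference at 10, 3 and 0.3 ng for the 14 tested aquaporin probe sets, on the log2(signal + 3.9) scale, with 95% intervals from limma and black ticks where dim signals were raised to background. At 10 ng 13 probe sets lie to the right of 0 and that of Aqp5 at -1.69 to the left, and the Aqp5 interval against 0.3 ng reaches 0.03.

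Against the reference at lower input the counts were much the same. Of the 14 tested probe sets 13 were higher and 1 lower against 3 ng (56.7% of all tested probe sets called, 21.8% higher and 34.9% lower, and 5886 higher and 9422 lower became 7550 and 6546 with centred arrays). Against 0.3 ng 13 were higher, 0 lower and Aqp5 did not pass (34.8% called, 18.1% higher and 16.7% lower). As a description, the median log2 difference of the 14 was 4.22, 4.43 and 4.43 against 10, 3 and 0.3 ng, beside -0.34, -0.35 and -0.06 over all tested probe sets. These 3 comparisons share the kidney arrays and so are not independent of each other.

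The reference at its 3 inputs shows how far aquaporin signals held when less of 1 RNA was amplified. None of the 14 tested probe sets passed in any of the 3 comparisons between inputs. Over all tested probe sets 0% passed at 3 against 10 ng, 0.796% at 0.3 against 10 ng and 0.241% at 0.3 against 3 ng. At an unadjusted p under 0.05, limma gave 2, 1 and 1 of the 14, beside 10.1%, 15.5% and 13.4% of all. Most members were at or near background in the reference, where a difference could not be measured: 5 of the 20 probe sets were above background on every array at 10 ng, 5 at 3 ng and 4 at 0.3 ng, against 16 in kidney.

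The members measured above background at every input gave the following intervals. For Aqp1 the log2 difference was 0.61 at 3 against 10 ng (95% interval 0.03 to 1.20, unadjusted p = 0.0433, limma adjusted p = 0.475), with no overlap between the arrays, and 0.23 at 0.3 against 10 ng (-0.36 to 0.82, adjusted p = 0.678). For Aqp3 (1450460_at) the differences from 10 ng were -0.02 at 3 ng (-0.72 to 0.68) and 0.05 at 0.3 ng (-0.78 to 0.88). For Aqp5 they were 0.01 (-0.48 to 0.51) and -0.65 (-1.78 to 0.48). For Aqp6 (1459982_a_at) they were 0.62 (0.07 to 1.17) and -0.23 (-1.39 to 0.93). For Aqp3 both values lie near 0, yet their intervals reach from -0.78 to 0.88, so equal levels are not shown. The wide Aqp5 interval at 0.3 ng goes with the spread of its arrays there, 184.6 ± 108 (SD, n = 3) against 267 ± 55.9 at 10 ng.

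Of the 4 differences between inputs at an unadjusted p under 0.05, 3 belonged to Aqp6 and 1 to Aqp1. The probe set 1459982_a_at gave 104, 143 and 131 at 3 ng, above all 3 arrays at 10 ng, a log2 difference of 0.62 (95% interval 0.07 to 1.17, unadjusted p = 0.0321, limma adjusted p = 0.45). The probe set 1447974_s_at gave 51.2, 29.9 and 69.9 at 0.3 ng and 8.9, 15.1 and 17.7 at 3 ng, a difference of 1.57 (0.61 to 2.53, unadjusted p = 0.00734, adjusted p = 0.195), which came to 0.55 with dim signals raised to background. At 0.3 against 3 ng the probe set 1459982_a_at lay on the other side of 0, at -0.85 (-1.99 to 0.30), so the 2 probe sets of this gene gave opposite signs. Aqp11 (1429254_at) fell below background on all arrays at 3 ng, with a difference from 10 ng of -1.04 (-2.16 to 0.07, adjusted p = 0.514), or -0.32 with dim signals raised to background.

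In order of their group means, Aqp1 was brightest in kidney, then in the reference at 3, 0.3 and 10 ng, and Aqp5 was brightest in the reference at 10 ng, then at 3 and 0.3 ng, and dimmest in kidney. For both genes no pair of reference inputs passed. For Aqp5 the step from 0.3 ng to kidney did not pass either. For the other 6 tested genes the kidney mean was highest, and again no pair of reference inputs passed.

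**Figure D3:**
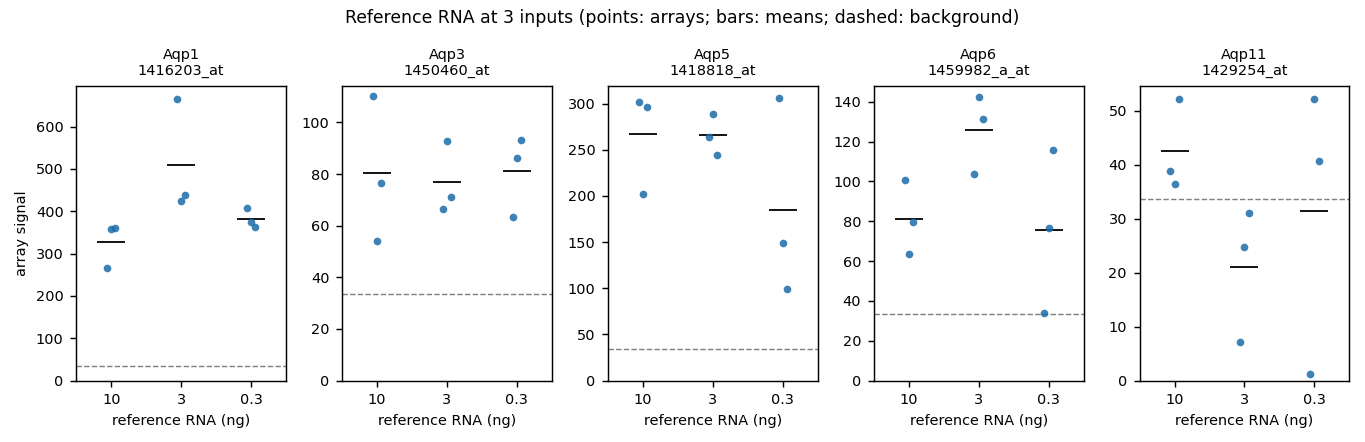
Signal of the 5 aquaporin probe sets above background on every reference array at 10 ng, at inputs of 10, 3 and 0.3 ng, with 1 point per array, a bar at the mean of each group of 3, a dashed line at the background level of 33.7 and a linear axis from 0 in each panel. Aqp1 is above all 3 arrays at 10 ng when 3 ng was used, and Aqp5 spreads from 99.4 to 306 at 0.3 ng.

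Several aquaporin genes lie side by side in the genome, and the genes beside each member were read from the order of protein-coding genes in the RefSeq table of GRCm38.p6, after the values of the members were seen. Over all members 10 outer neighbours had a probe set. Of the 7 tested, 1 was higher in kidney than in the reference at 10 ng, 4 were lower and 2 did not pass (22.9% of all tested probe sets were higher and 37.2% lower), and 3 were not tested. On chromosome 15 the order is Faim2, Aqp2, Aqp5, Aqp6 and Racgap1, so that Aqp5, lower in kidney, lies between 2 aquaporins that were higher. Racgap1, a regulator of cell division, gave 55.3, 8.7 and 11.9 in kidney and 1612, 1146 and 1346 in the reference at 10 ng (log2 difference -5.90, SE 0.60, limma adjusted p = 0.000553), 34.1-fold lower with dim signals raised to background. Racgap1 reached the level for testing through the reference alone, so a difference was built in. Faim2, on the far side, gave 47.7, 51.8 and 9 in kidney against 7.6, 22 and 6 and was not tested.

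On chromosome 4 Aqp7 and Aqp3, both glycerol channels and both higher in kidney, lie between Nfx1 and Nol6. Nfx1 was lower in kidney, with means of 4962.5 and 8941 (log2 difference -0.85, SE 0.13, limma adjusted p = 0.00274), and Nol6 did not pass, with means of 265 and 245.6 (0.10, 95% interval -0.25 to 0.46, adjusted p = 0.557). Beside the members that stand alone, Kctd1, next to Aqp4, was higher (1.23, SE 0.32, limma adjusted p = 0.0197). Lcmt1, next to Aqp8, and Clns1a, next to Aqp11, were lower (-0.84 and -0.54, limma adjusted p = 0.0122 and 0.0121), and Mindy4, next to Aqp1, did not pass (0.23, 95% interval -0.77 to 1.23).

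**Figure D4:**
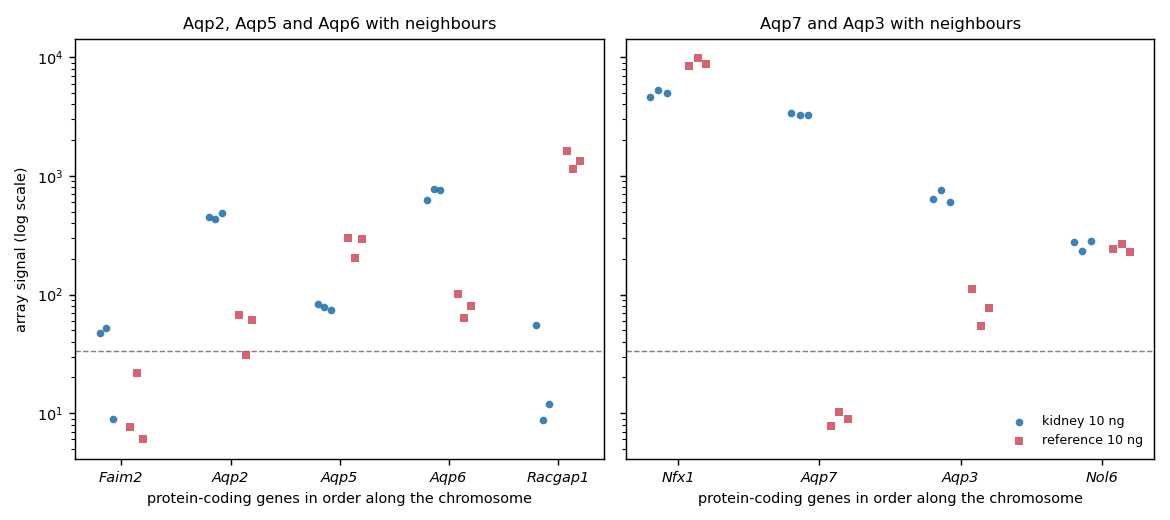
Signal on the 3 kidney and 3 reference arrays at 10 ng, on a log scale, for the aquaporins of chromosomes 15 (left) and 4 (right) and the protein-coding genes beside them, in chromosome order, with a dashed line at the background level of 33.7. Aqp5 has its reference points above its kidney points, as Racgap1 does, while Aqp2 and Aqp6 have them below.

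Vasopressin reaches Aqp2 through its receptor, cAMP and protein kinase A, and the genes of that route were called in both directions. Of 11 tested of 12 listed genes, 3 were higher in kidney than in the reference at 10 ng, 2 were lower and 6 did not pass, with a median log2 difference of -0.09. Among all probe sets tested, calls were 22.9% up and 37.2% down around a median difference of -0.34. Nothing particular to the list is read from its count. The receptor Avpr2 gave 252, 250.3 and 277 in kidney against 44.7, 13.1 and 3.3 in the reference (log2 difference 3.86, SE 0.67, limma adjusted p = 0.00423), 7.01-fold with dim signals raised to background. Avpr2 reached the level for testing through kidney alone, so a difference was built in. The adenylate cyclase Adcy3, with means of 132 and 58.0, and the phosphodiesterase Pde4d, with means of 1582 and 824, were also higher. Pde4d and Avpr2 passed at the lower inputs too, but Adcy3 did not: the reference mean was 146 at 3 ng, above kidney (-0.15, limma adjusted p = 0.599), and 96.0 at 0.3 ng (0.46, limma adjusted p = 0.301). The 2 lower genes, named after their values were seen, were Gnas, which encodes the stimulatory G protein (2353 and 3551.5, -0.59), and the cyclase Adcy6 (119 and 197, -0.67). Neither passed with arrays centred on their medians (limma adjusted p = 0.116 for Gnas and 0.134 for Adcy6), when 4 genes were higher and 0 lower, and Adcy6 also did not pass without kidney replicate 1, 2 or 3 or without reference 10 ng replicate 1 or 3 (limma adjusted p = 0.0962, 0.0915, 0.081, 0.105 and 0.110). The cyclase Adcy9 (0.94, 95% interval 0.01 to 1.88, adjusted p = 0.0754, but 0.0185 without kidney replicate 3) and the kinase subunit Prkaca (-0.09, -0.41 to 0.23) did not pass. Elf5, a transcription factor of principal cells, was not tested.

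Genes that move Aqp2 vesicles to the apical membrane were also called in both directions. Of 15 genes, 5 were higher, 4 lower and 6 did not pass, with a median of 0.19 (the same 22.9%, 37.2% and -0.34 apply to all probe sets), and with arrays centred on their medians 7 were higher and 2 lower. Myo5b, the motor that carries recycling vesicles, had means of 949.6 in kidney and 18.7 in the reference and was at least 28.2-fold higher (limma adjusted p = 8.07e-06). Myo5b reached the level for testing through kidney alone, so a difference was built in. Ezr, which ties membrane to actin, was higher by 1.24 (1672 and 707.5, adjusted p = 0.000393), and Anxa2, an annexin also abundant in fibroblasts, was lower by 6.47-fold (1352 and 8754, log2 difference -2.69, adjusted p = 3.84e-05). Rab11a (0.19, -0.17 to 0.55) and Vamp2 (0.23, adjusted p = 0.159) did not pass. Of the 4 lower genes, Vamp3 lost its call without any 1 of the 6 arrays (limma adjusted p = 0.0508 to 0.0948) and Dynll1 without kidney replicate 1 or 3 (0.0615 and 0.0527).

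The third list holds genes that handle the glycerol that Aqp3 and Aqp7 carry. Of 5 tested of 8 listed genes, 4 were higher, 0 were lower and 1 did not pass, with a median of 1.74, where all probe sets had 22.9% up, 37.2% down and -0.34. The smallest of the 4 differences was that of Gpd1l, 0.60 against the reference at 10 ng, and against 0.3 ng the gene did not pass (0.43, 95% interval -0.85 to 1.71). At 10 ng it did not pass without kidney replicate 1, 2 or 3 or without reference 10 ng replicate 2 or 3 (limma adjusted p = 0.061, 0.0654, 0.0674, 0.0721 and 0.0751). Mgll, which frees glycerol from monoglycerides, had means of 520.1 and 32.6 (log2 difference 3.88, limma adjusted p = 9.77e-05), Gpd1, which makes glycerol 3-phosphate, 524 and 50.1 (3.30, adjusted p = 9.4e-05), and the lipase Pnpla2 498 and 144 (1.74, adjusted p = 0.00151). Mgll reached the level for testing through kidney alone, so its difference was built in. Gpd2 did not pass (-0.33, adjusted p = 0.187), and Lipe was not tested. The adipocyte markers given beside Aqp7 moved in the same direction, and their part in the glycerol genes was not tested.

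**Figure D5:**
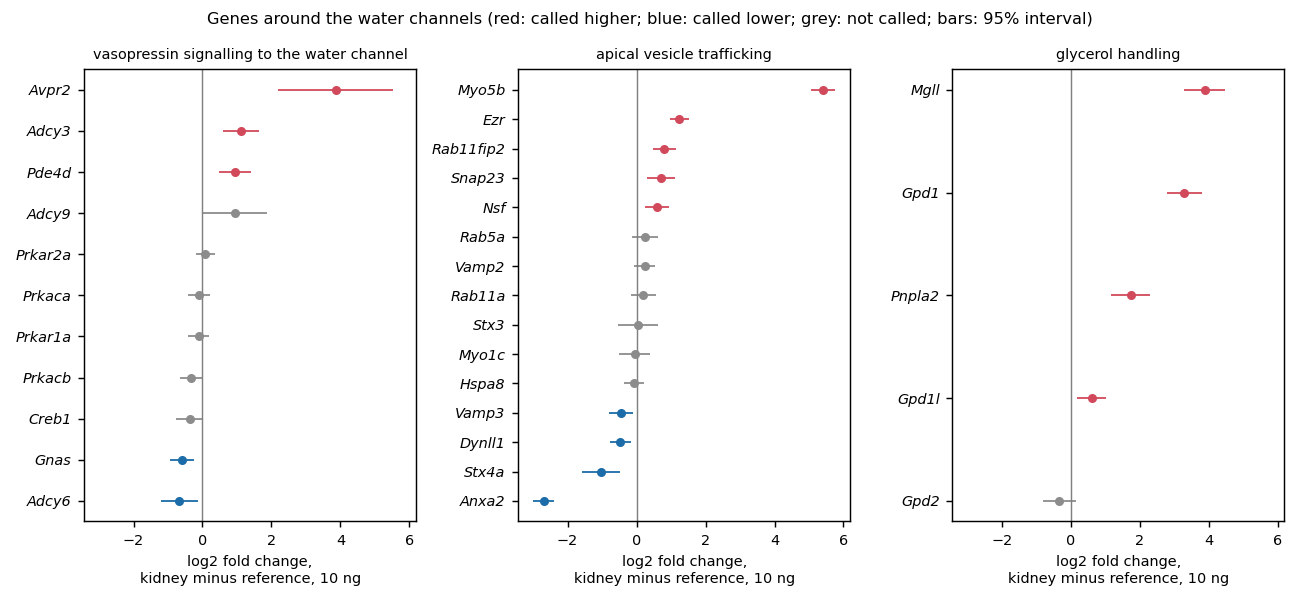
Log2 difference between kidney and reference at 10 ng for each tested gene of the vasopressin, vesicle trafficking and glycerol lists, with 1 point per gene, its 95% interval from limma as a bar, red for genes higher in kidney, blue for lower and grey for those that did not pass. Avpr2 at 3.86 and Myo5b at 5.41 lie farthest right in the first 2 lists, and Anxa2 at -2.69 lies farthest left.

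The genes whose profile over the 12 arrays lay nearest to each aquaporin were found by the mean absolute difference in log2 signal, raised to background and centred on each gene's own mean. Nearest were Hsd3b2 and Mettl7b to Aqp4 (0.01 and 0.03) and Cfb and Abca13 to Aqp7 (0.10 each). Hsd3b2 gave 3873, 4319 and 4170 in kidney and 15.5, 15.9 and 15.5 in the reference at 10 ng. All 4 of these genes were below background on every reference array, so the values compare mainly the 3 kidney arrays. For Aqp1 the nearest were Fam163a and Btnl2 (0.19 and 0.20), for Aqp3 Armh4 and Ctsf (0.18 and 0.19), and for Aqp11 Fitm1 and Aspdh (0.15 and 0.17). These 6 genes were above background on only 0 to 3 of the 9 reference arrays, while Aqp1 and Aqp3 were above it on all 9. The background level to which they were raised therefore sets their distance from kidney, and their place beside Aqp1, Aqp3 and Aqp11 is no likeness of measured reference levels.

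The nearest genes of the other members were above background on at least 8 of the 9 reference arrays. They were Cibar1 and Anapc1 for Aqp5 (0.18 and 0.21), and in both every kidney array lay below every reference array at 10 ng. For Aqp2 they were Dgat2 and H2ac19 (0.25 and 0.26), although Aqp2 itself was above background on only 2, 1 and 1 reference arrays at 10, 3 and 0.3 ng, so that the floor sets part of this distance too. They were, for Aqp6, Arhgef16 and Hsd17b4 (0.27 each). For Aqp8, dim in every group, they were Dnaja2 and Parva (0.22 and 0.24).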

How the data were processed

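Mouse RNA was measured on 12 one-colour expression arrays in 4 groups of 3, with groups and inputs taken from the titles. The deposited intensity values are linear, 1 per probe set and array, and the values show that the authors scaled each array to a 2% trimmed mean of 500. Software, summarisation, background correction, amplification and labelling were not given in any source used. Symbols came from the platform annotation: 34945 probe sets had 1 symbol, 932 several and 9160 none. The members and gene lists were chosen with earlier results of these data known.

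Values were used as deposited, as log2(signal + 3.9). Adding 3.9 shrinks the fold changes of dim genes against their raw signals. Where signals lay below background, though, a fitted difference could exceed the one with dim signals raised to background. For Aqp3 1422008_a_at, kidney against reference at 10 ng, the fitted difference was 5.98 and the raised one 3.32. Probe sets were tested if the highest of the 4 group means passed the 40th percentile (signal 65.4), which kept 27022, and 64 control probe sets were left out. For any gene that passed through kidney alone or through the reference alone, a difference between them was built in. A limma fit (version 3.58.1, R 4.3.3, lmFit and eBayes, two-sided, Benjamini-Hochberg, threshold 0.05) was made per comparison on its 6 arrays, without covariates, and the scripts were tested on simulated data. The fit assumes equal spread in both groups, which the 0.3 ng arrays do not show. A gene with several probe sets was represented by the one with the highest mean log2 signal. Where every array of the dimmer group was below background (33.7), the fold is a lower bound with dim signals raised to background; where some were, the fold with dim signals raised is given. The number of arrays limits the precision. Named genes were all members, other mouse aquaporins, up to 3 called genes with the largest change and up to 2 that did not pass per list, and the 2 nearest profiles per member; exceptions are marked. Promoters are RefSeq windows, matched for 4 genes by symbol; Aqp6 and other members are not shown. Alternatives changed the pseudocount, background, filter, normalization, arrays in the fit, replicate block and replicates.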

Additional observations from a re-analysis of the deposited data

How the results depend on the processing

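For kidney against the reference at 10 ng, all 14 tested aquaporin probe sets kept their direction and their side of the threshold under every alternative in which they were tested, which changed the pseudocount, the treatment of dim signals, the filter, the normalization, the arrays in the fit, the replicate block and the replicates left out. Fitted log2 differences of dim probe sets moved most, from 3.32 to 7.10 for Aqp3 1422008_a_at, while Aqp5 ranged from -1.88 to -1.45. The aquaporin calls numbered 14 except 12 when low probe sets were filtered by their mean over the 12 arrays. Leaving out 1 replicate at a time gave 14 calls against 10 ng, 14 against 3 ng and 12 to 14 against 0.3 ng. With all 12 arrays in 1 fit, 1 aquaporin probe set was called between the reference at 0.3 and 3 ng, where none was otherwise, and Aqp5 passed against 0.3 ng (adjusted p = 0.0307); the cause was not tested. Over all probe sets, the calls at 0.3 against 10 ng were 215, 1571 with 1 fit for all arrays and 0 with the block, and at 0.3 against 3 ng they were 65, 1386 and 0.

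Replicate numbers did not pair the arrays: same-numbered arrays deviated from their group means with correlations of -0.0629 to 0.0159. With the replicate number as a block, the aquaporin calls were 14, 14 and 13 against the reference at 10, 3 and 0.3 ng and 0 between reference inputs. With the highest Bacillus signal (50.4) as background, 14 probe sets in kidney and 4, 4 and 3 in the reference at 10, 3 and 0.3 ng were above it on every array. The gene lists and the aquaporin differences at 3 and 0.3 ng were put through the alternatives after seeing the data. Signals near background set the limit for most aquaporins in the reference.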
